A study of Mus musculus with 9 samples.

Results

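The genes described here are 36 named components of the machinery of regulated cell death of 4T1, a cell line from a mouse mammary carcinoma. They cover the Bcl2 family, the apoptosome with its caspases and their inhibitors, the death receptors with their adaptors, the necroptosis kinases with Mlkl, and the inflammatory caspases with the gasdermins. Members were chosen by gene name, with the FPKM (fragments per kilobase of transcript, a level corrected for transcript length and library size) of all transcripts of a name summed per library, and all 36 names were among the 52306 gene names in the deposited table. RNA was sequenced from 9 libraries in 3 groups of 3, all of 4T1 cells at day 2: a negative control (NC), cells treated with MK1775, a small-molecule inhibitor of the cell cycle kinase Wee1, and cells whose label is Wee1 siRNA. The MK1775 dose, the siRNA sequences, what the negative control received, and whether the numbers of the siRNA libraries are replicates or different siRNAs could not be read from the sources used here.

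Apoptosis can start at the mitochondrion or at the cell surface. In the mitochondrial route, BH3-only proteins sense damage and either neutralise the anti-apoptotic Bcl2 proteins or activate the effectors Bax and Bak, which open the outer membrane. Cytochrome c then assembles Apaf1 and caspase 9 into the apoptosome, and Diablo (Smac) releases caspases from the inhibitor of apoptosis proteins (IAPs). Death receptors instead recruit Fadd and caspase 8, a step limited by Cflar (c-FLIP). Where caspase 8 is inactive, Ripk1 and Ripk3 can phosphorylate Mlkl, which ruptures the plasma membrane in necroptosis. Inflammatory caspases cleave gasdermin D, whose pores cause pyroptosis.

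The library totals lay between 321551 and 332950 FPKM, and 10017 to 10783 named genes reached 1 FPKM in a library. Depth is unknown, since the files give FPKM and low values were not whole multiples of a common step. Wee1 itself was not lower in the libraries labelled Wee1 siRNA: it had 11.5, 10.5 and 11.0 FPKM in NC, 14.95, 14.7 and 16.8 FPKM with MK1775 and 13.1, 15.1 and 15.3 FPKM under the siRNA label. Wee1 was called higher than NC in both, by 0.46 with MK1775 and 0.37 under the siRNA label on the log2 scale (limma adjusted p = 0.00226 and 0.00633). The siRNA group is therefore called by its label throughout, and its directions describe those libraries rather than a loss of Wee1 mRNA. Of 8 epithelial markers, 5 reached 1 FPKM and Epcam stayed at or below 0.6 FPKM, with a summed level of 427.3 to 495.8 FPKM in NC, 773.7 to 791.1 FPKM with MK1775 and 714.4 to 725.2 FPKM under the siRNA label. Krt8 and Krt18 carry that sum, while Cldn3 fell from a mean of 18.2 FPKM in NC to 10.1 and 9.94 FPKM (limma adjusted p = 0.000142 and 0.000119). The 14 immune markers summed to 9.952 to 12.24 FPKM in NC, 6.588 to 9.06 FPKM with MK1775 and 8.366 to 10.04 FPKM under the siRNA label (3 reached 1 FPKM, while Lyz2, Adgre1, Cd3e, Ms4a1 and Nkg7 were at 0), and the 11 stroma markers to 2.601 to 3.818, 2.318 to 2.939 and 2.813 to 3.271 FPKM in the same order (2 reached 1 FPKM, and Lum was at 0). The 8 blood markers summed to 0.0997 to 0.1915 FPKM in NC, 0.748 to 1.015 FPKM with MK1775 and 1.055 to 1.165 FPKM under the siRNA label, with Hbb-bt and Pf4 at 0. Members of the immune list moved both ways. Mean Cd14 was 5.65 FPKM in NC, 4.20 with MK1775 and 4.19 under the siRNA label, and mean Cd68 was 3.69, 2.23 and 2.63 FPKM. By contrast, mean Itgam was 0, 0.277 and 0.451 FPKM and mean Ptprc 0.0126, 0.170 and 0.326 FPKM in the same order. The part of these shifts in the results below was not tested. In a bulk culture, fewer cells of a type and less RNA per cell cannot be told apart.

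Of the 36 members, 27 averaged 1 FPKM or more across all libraries and were tested, and 9 (Bik, Bmf, Pmaip1, Hrk, Casp12, Fas, Ripk3, Casp1 and Casp4) lay under it. With MK1775, Bax, Bbc3, Diablo and Birc2 rose, and Bcl2, Bcl2l1, Mcl1, Bok, Bid, Casp6, Xiap and Tnfrsf10b fell. Under the siRNA label, Bax, Bcl2l11, Bbc3, Diablo and Birc2 rose, and Bcl2, Mcl1, Bak1, Bok, Bid, Casp9, Casp6 and Tnfrsf10b fell. Each call is a Benjamini-Hochberg adjusted p under 0.05 from limma, fitted to log2(FPKM + 1) over all 10453 genes tested. The 12 of 27 members called with MK1775 (44.4%) stand beside 41% of all genes tested, of which 17.9% were called higher and 23.1% lower. The 13 of 27 called under the siRNA label (48.1%) stand beside 42.8%, of which 19.6% were higher and 23.2% lower. On named transcripts, the members were thus called at about the rate of any expressed gene. The median difference over the tested members was -0.15 with MK1775 (all genes -0.04) and -0.11 under the siRNA label (all genes -0.01) on the log2 scale. With unnamed transcripts of a locus added to its named gene, the share of members called was below that of all genes. With MK1775, 4 members rose and 7 fell (40.7%, beside 54.1% of all genes called). Under the siRNA label 5 rose and 8 fell (48.1%, beside 56.2%), and 0 were called between the treated groups (beside 0.00914%). Both comparisons use the same 3 NC libraries, so their values are given side by side and are not independent. The labels do not say whether the replicates are separate cultures. The p-values therefore speak only of the variation seen among these libraries, which may be technical.

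**Figure D1:**
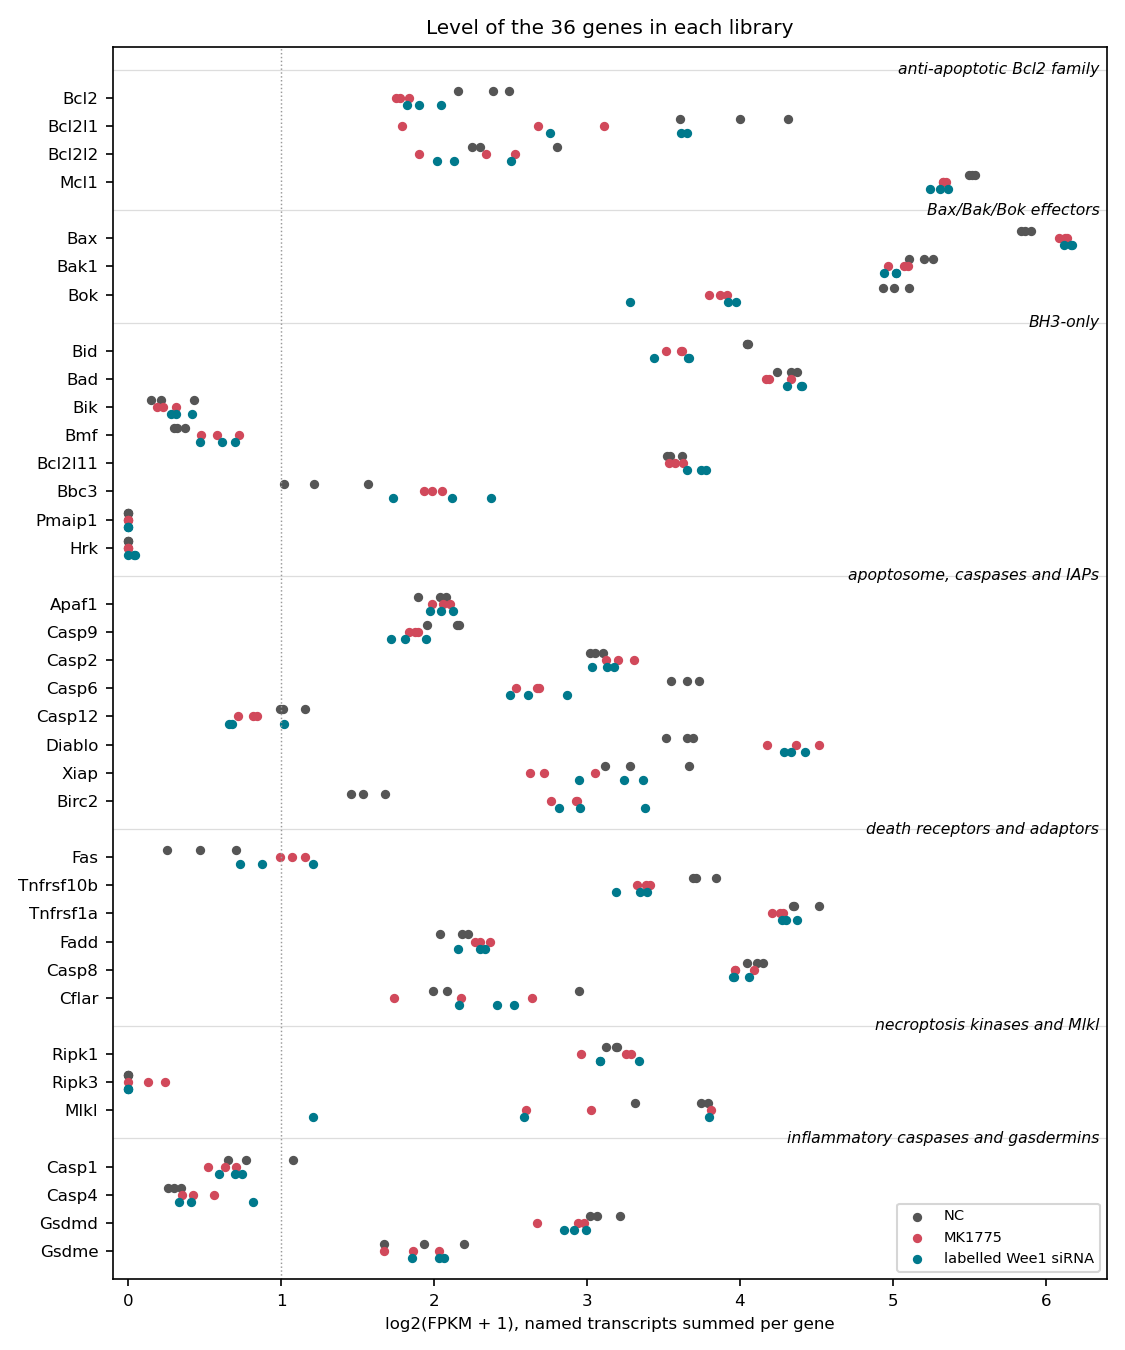
Level of each of the 36 genes as log2(FPKM + 1), summed over named transcripts, in the 9 libraries, ordered by role; each point is a library, coloured by group, and the dotted line marks 1 FPKM. Bok, Casp6, Bid and Tnfrsf10b have all 6 treated libraries below the 3 NC libraries, and Bax, Bbc3, Diablo and Birc2 have them above.

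The promoters of 4 members that were called in both comparisons with NC and whose listed start lies close to the start of their most abundant transcript are printed here, 3 of genes that rose (Bax, Bbc3, Diablo) and 1 of a gene that fell (Casp6). Each is the 250 bases before the RefSeq start on GRCm38.p6, read 5′ to 3′ on the gene's strand: chr7:45466899-45467148 (minus strand) for Bax, chr7:16309333-16309582 (plus) for Bbc3, chr5:123524165-123524414 (minus) for Diablo and chr3:129901165-129901414 (plus) for Casp6. The capitals mark motif matches found on either strand, and overlapping matches run together.
Bax: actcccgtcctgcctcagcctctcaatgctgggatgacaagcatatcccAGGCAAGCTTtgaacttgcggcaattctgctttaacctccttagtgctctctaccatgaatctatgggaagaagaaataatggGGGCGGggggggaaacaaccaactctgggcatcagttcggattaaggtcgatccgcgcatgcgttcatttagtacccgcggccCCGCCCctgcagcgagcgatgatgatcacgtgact
Bbc3: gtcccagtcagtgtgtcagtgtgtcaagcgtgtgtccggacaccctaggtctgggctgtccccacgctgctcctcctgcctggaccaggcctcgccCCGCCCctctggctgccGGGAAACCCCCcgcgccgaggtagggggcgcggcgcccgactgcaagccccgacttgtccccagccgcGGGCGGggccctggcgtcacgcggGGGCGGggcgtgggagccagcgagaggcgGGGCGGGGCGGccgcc
Diablo: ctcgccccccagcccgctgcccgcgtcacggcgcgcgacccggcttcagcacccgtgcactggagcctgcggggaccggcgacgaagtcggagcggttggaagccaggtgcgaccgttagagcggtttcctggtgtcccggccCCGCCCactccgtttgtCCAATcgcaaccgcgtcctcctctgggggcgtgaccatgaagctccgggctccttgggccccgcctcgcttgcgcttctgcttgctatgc
Casp6: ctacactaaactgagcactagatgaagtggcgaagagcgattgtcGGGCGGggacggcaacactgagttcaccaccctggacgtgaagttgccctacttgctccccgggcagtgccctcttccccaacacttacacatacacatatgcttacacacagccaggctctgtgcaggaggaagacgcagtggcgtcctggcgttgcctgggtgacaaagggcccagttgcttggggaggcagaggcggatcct
The listed start is 0 bases from the start of the main transcript for Bax, 33 for Bbc3, 12 for Diablo and 10 for Casp6. Bcl2 (16 bases), Bid (29 bases), Mcl1 (67 bases) and Bok (85 bases) were also called in both comparisons with NC. All of these fell, and their promoters are not printed, so the printed set is a choice among such members. The capitals are a p53 half-site (searched by its consensus name) and 2 GC boxes (GGGCGG) in Bax, GC boxes and overlapping matches of an NF-kB motif (by its consensus name) in Bbc3, a GC box and a CCAAT box (CCAAT) in Diablo, and a GC box in Casp6. Over the 32 members with an entry in the promoter table, the GC box occurred in 21 (65.6%, against 32.7% of all 32851 promoters) and the CCAAT box in 7 (21.9% against 33.8%). The p53 half-site occurred in 1 (3.12% against 7.13%) and the NF-kB motif in 3 (9.38% against 7.25%). An E2F motif (TTTCGCGC, TTTGGCGC or TTTCCCGC) was found in 3 members, Bcl2l1, Casp2 and Fadd (9.38% against 1.53%), and the C/EBP-ATF composite (TGATGNAA) in Hrk alone (3.12% against 3.45%). No member's window held a cAMP response element (TGACGTCA, in 1.55% of all promoters). Each member's window is the listed entry nearest its main transcript. It lies 7128 bases from that start for Casp8, 2505 for Ripk3, 1826 for Cflar and 1551 for Birc2. The GC boxes of Ripk3 and Birc2 are among the 21. The 32851 promoters are all those listed and were not matched to genes expressed here. A match is a stretch of letters and not a bound site.

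Among the 4 anti-apoptotic Bcl2 proteins, none was called higher. Bcl2, the founding member of the family, fell in both treated groups. Bcl2 (chr1:106465908-106642004, minus strand, GRCm39) had 4.62, 3.45 and 4.23 FPKM in NC, 2.57, 2.43 and 2.37 FPKM with MK1775, and 2.73, 2.54 and 3.12 FPKM under the siRNA label. All 6 treated libraries lay below the lowest NC library. The log2 difference from NC was -0.56 (SE 0.10, limma adjusted p = 0.00327) with MK1775 and -0.42 (SE 0.10, limma adjusted p = 0.0116) under the siRNA label.

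Mcl1, a short-lived anti-apoptotic protein that holds Bak and Bim, was the most highly expressed of these 4 per length and changed by less than Bcl2 did. Mcl1 (chr3:95566099-95570487, plus strand) had 45.4, 44.7 and 44.3 FPKM in NC, 39.7, 39.1 and 39.1 FPKM with MK1775, and 36.8, 38.6 and 40.1 FPKM under the siRNA label. The ranges did not overlap, and the NC values differed from each other by less than either treated group did from NC. The log2 differences were -0.18 (SE 0.04, limma adjusted p = 0.00899) and -0.21 (SE 0.04, limma adjusted p = 0.00413), a decrease to 0.878 and 0.860 of the NC mean.

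Bcl2l1, which encodes Bcl-xL, depended on which transcripts were counted. Its named transcripts (chr2:152622588-152674063, minus strand) summed to 15.0, 18.9 and 11.2 FPKM in NC, 5.42, 7.63 and 2.46 FPKM with MK1775, and 11.6, 11.3 and 5.77 FPKM under the siRNA label. On these, Bcl2l1 fell with MK1775 by 1.45 on the log2 scale (SE 0.38, limma adjusted p = 0.0158), a call that was lost without NC replicate 2 (-1.28, adjusted p = 0.056), while the siRNA label gave -0.63 (SE 0.38, adjusted p = 0.214). The table also holds 4 assembled transcripts of the Bcl2l1 locus that carry no gene name. With these added, the sum became 23.8, 27.04 and 28.5 FPKM in NC, 20.8, 18.0 and 20.7 FPKM with MK1775, and 17.6, 17.6 and 17.6 FPKM under the siRNA label, so that libraries of a group lay much closer together. On that sum the log2 difference was -0.40 (SE 0.07, limma adjusted p = 0.00192) with MK1775 and -0.56 (SE 0.07, limma adjusted p = 0.000247) under the siRNA label: the direction held, the size with MK1775 was smaller, and the siRNA label passed the threshold. The unnamed transcripts carried 43.1% of the locus in NC, 73.9% with MK1775 and 45.7% under the siRNA label. The fourth anti-apoptotic member, Bcl2l2 (Bcl-w), ranged from 2.73 to 5.97 FPKM and did not pass the test (log2 -0.19 and -0.23, adjusted p = 0.521 and 0.432). Bcl2l2 shares its strand and span with the read-through gene Gm20521, so the split of reads between them is uncertain.

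The 3 pore-forming effectors moved in different directions. Bax rose by a small and even amount, Bok fell by more than any other member called in both comparisons, and Bak1 passed the test only under the siRNA label, by a narrow margin. Bax (chr7:45111121-45116322, minus strand) had 56.1, 57.2 and 58.9 FPKM in NC, 68.9, 66.9 and 69.3 FPKM with MK1775, and 70.6, 68.6 and 71.2 FPKM under the siRNA label. Every treated library lay above every NC library, with log2 differences of 0.25 (SE 0.04, limma adjusted p = 0.00106) and 0.28 (SE 0.04, limma adjusted p = 0.000512), or 1.19-fold and 1.22-fold.

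Bok, a Bax relative that can act without BH3-only proteins and is controlled by its degradation, showed the largest fall of this group. Bok (chr1:93613382-93623492, plus strand) had 31.2, 33.4 and 29.5 FPKM in NC, 14.1, 12.9 and 13.6 FPKM with MK1775, and 14.1, 14.7 and 8.73 FPKM under the siRNA label. The log2 differences were -1.16 (SE 0.17, limma adjusted p = 0.000933) and -1.29 (SE 0.17, limma adjusted p = 0.000507). Mean FPKM, without the added 1, was 2.32-fold and 2.51-fold lower. Replicate 3 under the siRNA label stood apart from the other two on named transcripts. With the unnamed transcript of the locus added, the siRNA label gave 16.0, 15.7 and 15.3 FPKM, MK1775 gave 15.2, 14.8 and 14.7 FPKM and NC gave 32.8, 36.6 and 35.7 FPKM. The differences were then -1.18 and -1.12 with an SE of 0.05 (limma adjusted p = 2.87e-07 and 3.62e-07).

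Bak1, which sits in the mitochondrial membrane from the start, had 33.4, 37.4 and 35.8 FPKM in NC, 30.3, 32.6 and 33.3 FPKM with MK1775, and 31.5, 31.5 and 29.8 FPKM under the siRNA label (chr17:27238784-27247983, minus strand). The siRNA label passed the test (log2 -0.19, SE 0.06, limma adjusted p = 0.0272) and MK1775 did not (-0.14, adjusted p = 0.0835), and the direct difference between them, 0.05, did not pass (adjusted p = 0.891). That call did not hold without NC replicate 2 (adjusted p = 0.0804), NC replicate 3 (0.078), siRNA-label replicate 2 (0.0526) or siRNA-label replicate 3 (0.082), nor with median-of-ratios or quantile scaling (0.0737 and 0.118). With MK1775, Bak1 was called without NC replicate 1 (log2 -0.19, adjusted p = 0.0384). In each library the ratio of Bax to Bcl2 was 12.1 to 16.6 in NC, 26.8 to 29.3 with MK1775 and 22.8 to 27.02 under the siRNA label. The ratio of Bak1 to Bok was 1.07 to 1.21, 2.15 to 2.53 and 2.14 to 3.41. The highest value is siRNA-label replicate 3, and with the unnamed Bok transcript added that library's ratio was 1.95, and the ranges were 1.00 to 1.02, 2.00 to 2.27 and 1.95 to 2.01. Both ratios describe FPKM only and were formed from genes already tested above.

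Of the 8 BH3-only genes, 4 were expressed above the minimum. Bbc3, which encodes Puma, a p53 target that binds all anti-apoptotic Bcl2 proteins, rose in both groups from a low level. Bbc3 (chr7:16042318-16052130, plus strand) had 1.96, 1.03 and 1.33 FPKM in NC, 2.83, 2.96 and 3.14 FPKM with MK1775, and 4.19, 3.35 and 2.31 FPKM under the siRNA label. No treated library reached down to the NC range, and the log2 differences were 0.72 (SE 0.19, limma adjusted p = 0.0153) and 0.81 (SE 0.19, limma adjusted p = 0.00904). The MK1775 call was lost without NC replicate 2 (0.60, adjusted p = 0.0516), and both were lost when only the most abundant Bbc3 transcript was used (0.55 and 0.70, adjusted p = 0.157 and 0.0768). With the 2 unnamed transcripts of the locus added, Bbc3 differed by 0.83 and 0.72 (limma adjusted p = 0.000806 and 0.0018). Its promoter, printed earlier, was the one of the 4 with the most GC boxes.

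Bid, which links caspase 8 to the mitochondrion once it is cleaved, fell in both groups. Bid (chr6:120868891-120893979, minus strand) had 15.6, 15.5 and 15.5 FPKM in NC, 10.5, 11.2 and 11.3 FPKM with MK1775, and 11.6, 11.7 and 9.84 FPKM under the siRNA label. The NC libraries were nearly level, and the log2 differences were -0.46 in each comparison (SE 0.07, limma adjusted p = 0.00126 and 0.00127). On the most abundant Bid transcript alone neither difference passed (-0.32 and -0.06, adjusted p = 0.537 and 0.91). Bid overlaps Bcl2l13 on the opposite strand, which averaged 6.67 FPKM in NC, 9.66 FPKM with MK1775 and 8.12 FPKM under the siRNA label, and without stated strand counting the reads of this overlap cannot be told apart.

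Bcl2l11 (Bim), a BH3-only protein that binds all anti-apoptotic partners, was called only under the siRNA label and only narrowly. Bcl2l11 (chr2:127967958-128004467, plus strand) had 10.7, 10.5 and 11.3 FPKM in NC, 11.3, 10.9 and 10.6 FPKM with MK1775, and 12.4, 11.6 and 12.7 FPKM under the siRNA label. The siRNA-label difference was 0.16 on the log2 scale (SE 0.06, limma adjusted p = 0.0485) and the MK1775 difference 0.02 (adjusted p = 0.857). The call was lost in 15 of the alternatives, among them leaving out NC replicate 1 (adjusted p = 0.101), NC replicate 2 (0.12), NC replicate 3 (0.0568), siRNA-label replicate 1 (0.113) or siRNA-label replicate 3 (0.131), or any of the MK1775 libraries (0.0642 to 0.0736). On named transcripts, Bcl2l11 was also the one tested member whose MK1775 values all lay below those of the siRNA label. The direct difference of -0.15 did not pass (limma adjusted p = 0.817). With unnamed transcripts added, the MK1775 values of Bok also lay wholly below those of the siRNA label, and those of Bcl2l1 wholly above. Neither direct difference passed on that sum (limma adjusted p = 0.827 and 0.763). Bad, which is held inactive by survival kinases, stayed between 17.0 and 20.2 FPKM (log2 -0.08 and 0.05, adjusted p = 0.331 and 0.532).

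The other 4 BH3-only genes lay under the minimum and were not tested. Bmf, released from the cytoskeleton on detachment, had 0.292, 0.248 and 0.230 FPKM in NC, 0.656, 0.389 and 0.494 FPKM with MK1775, and 0.620, 0.385 and 0.530 FPKM under the siRNA label. All 6 treated Bmf values were above NC, at a level where a fit without the minimum gave adjusted p = 0.0904 and 0.0834. Bik ranged from 0.110 to 0.347 FPKM with overlapping groups. Pmaip1, which encodes Noxa, another p53 target, was listed at 0 in every library. Hrk was listed at 0 in all but the siRNA-label replicates 1 (0.0252 FPKM) and 2 (0.0321 FPKM).

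**Figure D2:**
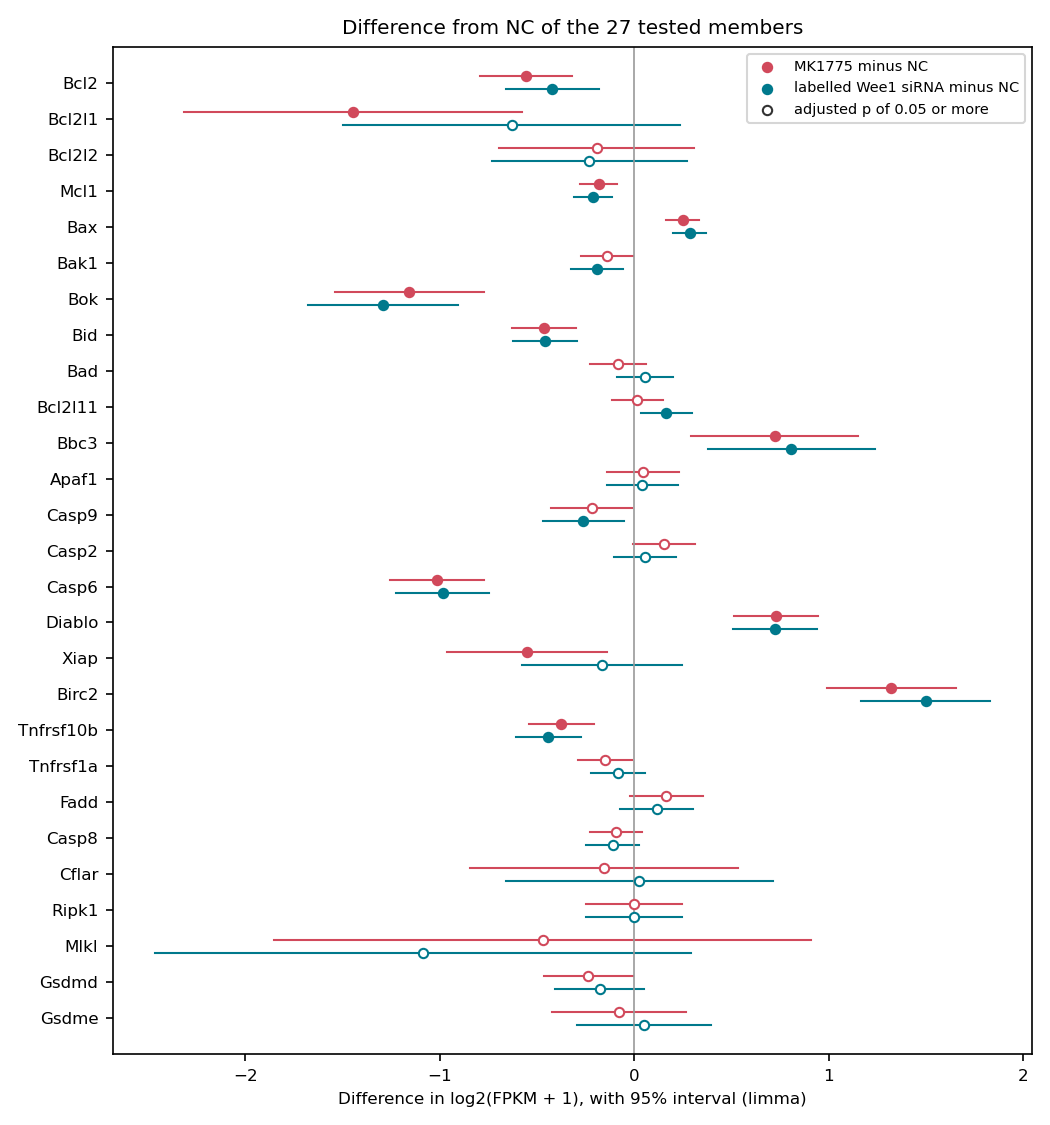
Difference from NC in log2(FPKM + 1) for each of the 27 tested members, with its 95% interval from limma; filled points have an adjusted p under 0.05, red is MK1775 and teal the siRNA label. Birc2, Bok and Casp6 lie about 1 or more from 0 in both comparisons, whereas Bcl2l1, Cflar and Mlkl have the widest.

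Downstream of the mitochondrion, Casp6 fell and Diablo rose in both groups, while Apaf1 did not pass the test. Casp6 encodes an effector caspase that cleaves lamins. Casp6 (chr3:129695074-129707752, plus strand) had 11.6, 10.7 and 12.3 FPKM in NC, 5.43, 5.37 and 4.79 FPKM with MK1775, and 5.11, 4.65 and 6.31 FPKM under the siRNA label. The highest treated library was well below the lowest NC library. Its log2 differences were -1.02 (SE 0.10, limma adjusted p = 0.00017) and -0.99 (SE 0.10, limma adjusted p = 0.000193). Mean FPKM, without the added 1, was 2.22-fold and 2.15-fold lower.

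Diablo, which carries Smac and antagonises IAPs after its release, went the other way. Diablo (chr5:123647828-123662560, minus strand) had 10.45, 11.6 and 11.96 FPKM in NC, 21.9, 17.0 and 19.6 FPKM with MK1775, and 18.5, 19.1 and 20.4 FPKM under the siRNA label. The lowest treated library was 17.0 FPKM and the highest NC library 11.96 FPKM. The log2 differences were 0.73 (SE 0.09, limma adjusted p = 0.000509) and 0.72 (SE 0.09, limma adjusted p = 0.00049). Mean FPKM, without the added 1, was 1.72-fold and 1.71-fold higher. The promoters of Casp6 and Diablo, printed earlier, each hold a GC box.

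Casp9, the initiator caspase of the apoptosome, had 2.87, 3.44 and 3.48 FPKM in NC, 2.58, 2.66 and 2.72 FPKM with MK1775, and 2.51, 2.28 and 2.86 FPKM under the siRNA label (chr4:141520923-141543287, plus strand). All treated Casp9 values were below NC, but the highest of them, 2.86 FPKM, nearly met the lowest NC value. Only the siRNA label passed (log2 -0.26, SE 0.09, limma adjusted p = 0.0464, against -0.22 and adjusted p = 0.0881 with MK1775), and 13 alternatives ended that call. They included the unnamed transcript added (-0.14, adjusted p = 0.352) and leaving out NC replicate 2 (0.124), NC replicate 3 (0.141), siRNA-label replicate 1 (0.0975), siRNA-label replicate 2 (0.139) or any MK1775 library (0.0672 to 0.0692). With MK1775, Casp9 was called without NC replicate 1 (-0.29, adjusted p = 0.0409). Apaf1, the scaffold of the apoptosome, stayed between 2.72 and 3.35 FPKM (log2 0.04 in each comparison, 95% interval -0.14 to 0.23 with MK1775 and -0.14 to 0.22 under the siRNA label). Casp2, the caspase of the PIDDosome, ranged from 7.11 to 8.91 FPKM and did not pass (log2 0.15 and 0.06, adjusted p = 0.117 and 0.564), although with MK1775 it did under median-of-ratios and quantile scaling (adjusted p = 0.0487 and 0.0436). Casp12, an endoplasmic reticulum caspase, lay under the minimum at 0.986 to 1.23 FPKM in NC, 0.644 to 0.793 FPKM with MK1775 and 0.581 to 1.03 FPKM under the siRNA label.

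Birc2, which encodes the ubiquitin ligase cIAP1, showed the largest rise of all tested members. Birc2 (chr9:7818228-7837331, minus strand) had 2.20, 1.74 and 1.89 FPKM in NC, 6.65, 6.60 and 5.80 FPKM with MK1775, and 6.06, 6.76 and 9.41 FPKM under the siRNA label. The lowest treated library, at 5.80 FPKM, was well above the highest NC library, at 2.20 FPKM. The log2 differences were 1.32 (SE 0.14, limma adjusted p = 0.000227) and 1.498 (SE 0.14, limma adjusted p = 0.000116). Mean FPKM, without the added 1, was 3.27-fold and 3.81-fold higher. On the log2(FPKM + 1) scale, Birc2 was the one tested member past a difference of 1 upward in both comparisons. Over all genes tested, 4.17% were called past that size in either direction with MK1775 and 4.69% under the siRNA label. By the ratio of mean FPKM, Bbc3 was also 2.07-fold and 2.28-fold above NC.

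Xiap, the IAP that inhibits caspases directly and that Diablo displaces, did not give a settled result. On named transcripts (chrX:41148556-41198533, plus strand) Xiap had 11.7, 8.70 and 7.67 FPKM in NC, 5.18, 5.59 and 7.31 FPKM with MK1775, and 6.71, 8.47 and 9.31 FPKM under the siRNA label. The MK1775 difference was -0.55 (SE 0.18, limma adjusted p = 0.0382) and the siRNA-label difference -0.17 (adjusted p = 0.486). The MK1775 call was lost in 11 alternatives, among them leaving out NC replicate 1 (adjusted p = 0.105), NC replicate 2 (0.0686), MK1775 replicate 1 (0.118), MK1775 replicate 2 (0.104) or siRNA-label replicate 2 (0.0552). With the 2 unnamed transcripts of the locus added, Xiap had 14.0, 8.70 and 11.3 FPKM in NC, 10.4, 10.1 and 10.7 FPKM with MK1775 and 9.11, 11.7 and 13.4 FPKM under the siRNA label, with overlapping ranges (log2 -0.09 and 0.01, adjusted p = 0.662 and 0.956).

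**Figure D3:**
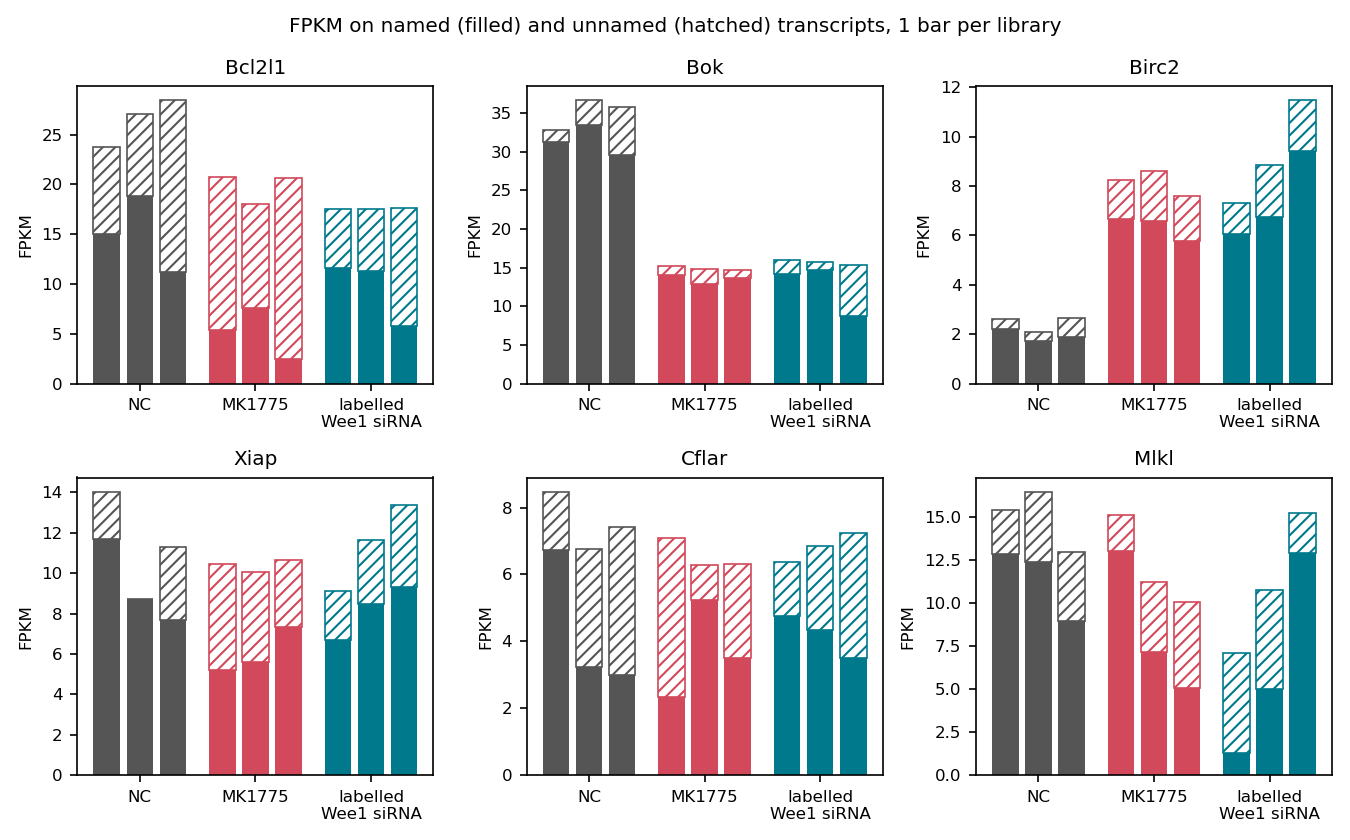
FPKM of 6 members in each of the 9 libraries, split into transcripts that carry the gene name (filled) and assembled transcripts of the same locus with no name (hatched). For Bcl2l1 and Cflar, and for Bok under the siRNA label, the whole bars of a group are closer in height than the filled parts, and for Birc2 both parts are higher in the 6 treated libraries.

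Single transcripts of the Bcl2l1 locus show part of its spread. The most abundant named transcript had 9.8, 15.3 and 8.9 FPKM in NC, 2.0, 2.2 and 1.1 FPKM with MK1775, and 8.7, 4.7 and 1.9 FPKM under the siRNA label. A single unnamed transcript of the locus had 1.1, 3.2 and 9.1 FPKM in NC, 11.96, 3.6 and 15.9 FPKM with MK1775, and 0.9, 2.5 and 0.1 FPKM under the siRNA label. This 1 unnamed transcript was thus high in 1 NC library and in 2 MK1775 libraries, and low in the 3 libraries under the siRNA label. All 4 unnamed transcripts of the locus summed to 8.74, 8.155 and 17.3 FPKM in NC and 15.3, 10.4 and 18.2 FPKM with MK1775. Under the siRNA label they summed to 5.95, 6.31 and 11.8 FPKM, so the other unnamed transcripts carried most of that sum.

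At the cell surface, Tnfrsf10b fell and the remaining expressed components did not pass the test. Tnfrsf10b encodes the mouse receptor for the death ligand TRAIL. Tnfrsf10b (chr14:70004921-70021860, plus strand) had 11.955, 13.3 and 12.1 FPKM in NC, 9.05, 9.64 and 9.45 FPKM with MK1775, and 9.48, 9.17 and 8.11 FPKM under the siRNA label. All 6 treated libraries were below NC, with log2 differences of -0.38 (SE 0.07, limma adjusted p = 0.00386) and -0.44 (SE 0.07, limma adjusted p = 0.00163). Tnfrsf1a, the main receptor for TNF, had 19.3 to 21.9 FPKM in NC, 17.5 to 18.5 FPKM with MK1775 and 18.4 to 19.7 FPKM under the siRNA label (log2 -0.15 and -0.09, adjusted p = 0.0801 and 0.291).

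Fas, the receptor of Fas ligand, lay under the minimum. Its values were 0.193, 0.387 and 0.630 FPKM in NC, 1.10, 1.23 and 0.987 FPKM with MK1775, and 1.31, 0.836 and 0.657 FPKM under the siRNA label. All 6 treated values were above NC, and a fit without the minimum gave a log2 difference of 0.60 (limma adjusted p = 0.0421) with MK1775 and 0.46 (adjusted p = 0.0958) under the siRNA label. In that fit 17.7% and 20.2% of 28692 genes were called.

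None of the adaptors and their caspase passed the test. Fadd, which bridges receptor and caspase, had 3.10 to 3.67 FPKM in NC, 3.82 to 4.16 FPKM with MK1775, all above NC, and 3.45 to 4.05 FPKM under the siRNA label (log2 0.16 and 0.12, adjusted p = 0.15 and 0.295). Casp8 ranged from 14.5 to 16.8 FPKM (log2 -0.09 and -0.11, adjusted p = 0.239 and 0.16), with 95% intervals that reach no further than -0.25, and was called lower in both comparisons when libraries were weighted by their spread (adjusted p = 0.0283 and 0.0148). Cflar, which lies next to Casp8 on chromosome 1, ranged from 2.34 to 6.72 FPKM on named transcripts without order by group (log2 -0.16 and 0.03, adjusted p = 0.712 and 0.953). With the 5 unnamed transcripts of the locus added, Cflar lay between 6.29 and 8.47 FPKM and did not pass either (log2 -0.17 and -0.12, adjusted p = 0.116 and 0.245).

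For necroptosis, the kinase Ripk3 was at or near 0 throughout. Ripk3 was listed at 0 in 7 libraries and had 0.0928 and 0.182 FPKM in MK1775 replicates 1 and 2. Ripk1, the kinase that also serves survival signalling at the TNF receptor, ranged from 6.78 to 9.12 FPKM with a log2 difference of 0.00 in each comparison (95% interval -0.25 to 0.25 in both). Ripk1 overlaps Serpinb6a on the opposite strand, which averaged 65.2 FPKM over the 9 libraries. Mlkl, the membrane executor, was the most variable tested member: it had 12.9, 12.4 and 8.94 FPKM in NC, 13.1, 7.14 and 5.06 FPKM with MK1775, and 1.31, 5.01 and 12.9 FPKM under the siRNA label. The ranges overlapped, and neither difference passed (-0.47 and -1.09, SE 0.60, limma adjusted p = 0.573 and 0.182). Without siRNA-label replicate 3 the Mlkl difference under that label was -1.72 (limma adjusted p = 0.027), so that library decides the call. With the 4 unnamed transcripts of the locus added, the differences were -0.29 and -0.46 (adjusted p = 0.329 and 0.128).

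The inflammatory caspases were barely expressed. Casp1, which matures interleukin 1 beta, ranged from 0.434 to 1.11 FPKM and Casp4 (caspase 11 of the noncanonical inflammasome) from 0.198 to 0.763 FPKM. Both lay under the minimum. The groups overlapped for Casp1, while for Casp4 the 3 MK1775 values (0.274 to 0.476 FPKM) lay just above the NC values (up to 0.273 FPKM) and the siRNA-label values overlapped them. Gsdmd, their substrate, was expressed at 5.37 to 8.28 FPKM and did not pass (log2 -0.24 and -0.18, adjusted p = 0.0902 and 0.18). Gsdme, a gasdermin that apoptotic caspases can cleave, ranged from 2.19 to 3.59 FPKM (log2 -0.08 and 0.05, adjusted p = 0.715 and 0.818) and overlaps Mpp6 on the opposite strand.

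MK1775 and the siRNA label were also compared directly, as a contrast of the fit of all 9 libraries. The NC libraries thus enter its estimate of the spread. None of the 27 tested members was called (limma), beside 0.00957% of all genes tested, that is 1 gene, Tmx2, higher with MK1775. A fit of the 2 treated groups alone called 0 members. Of all genes it called 0 higher and 1 lower, so Tmx2 was not called there. At an unadjusted p under 0.05, 1 member (Bcl2l11) and 616 of all genes passed, where 522.6 would be expected. The differences of the members ran from -0.82 for Bcl2l1 to 0.62 for Mlkl on the log2 scale (named transcripts), and the smallest adjusted p was 0.817. For 19 of the 27 the 95% interval of the difference lay within 0.5 of 0, so larger differences between the treated groups fall outside those intervals. For Bax the interval was -0.12 to 0.05, for Casp6 -0.27 to 0.21, for Diablo -0.21 to 0.22 and for Tnfrsf10b -0.10 to 0.23. For Bcl2l1 (-1.68 to 0.05), Cflar (-0.87 to 0.50) and Mlkl (-0.76 to 1.99) the interval on named transcripts leaves large differences possible. With the unnamed transcripts added, the direct difference was 0.16 (-0.0083 to 0.33) for Bcl2l1, with its sign turned, -0.05 (-0.24 to 0.14) for Cflar and 0.17 (-0.37 to 0.71) for Mlkl. A p that misses the threshold does not show that the groups act alike.

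Counting ranges rather than tests, on named transcripts, 6 members lay wholly above and 12 wholly below NC with MK1775. Under the siRNA label 5 lay above and 9 below. Such a separation occurred in 54% and 52.2% of all genes tested. Between MK1775 and the siRNA label 1 member was separated, beside 11.9% of all genes. Summed over the named transcripts of the 36 members, the level was 370.6 to 381.6 FPKM in NC, 333.1 to 345.4 FPKM with MK1775 and 341.9 to 351.1 FPKM under the siRNA label. Over the whole library, unnamed transcripts carried 10.04% to 11.19% of FPKM in NC, 12.05% to 12.62% with MK1775 and 12.26% to 12.84% under the siRNA label. The part of this shift in the lower member sums was not tested.

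The other genes of the pathways were taken from 3 lists with 71 names, of which 42 were tested. With MK1775, 4 of the 42 rose and 13 fell (median log2 -0.05), and under the siRNA label 5 rose and 15 fell (median -0.08). The 40.5% and 47.6% called stand beside 41% and 42.8% of all genes tested, whose medians were -0.04 and -0.01. With unnamed transcripts added, 8 rose and 17 fell with MK1775 (59.5%, beside 54.1% of all genes) and 8 rose and 16 fell under the siRNA label (57.1%, beside 56.2%). In the direct comparison 0 of 42 were called. The apoptosis list (22 of 27 tested) had 2 higher and 7 lower with MK1775 and 2 higher and 8 lower under the siRNA label. The death receptor list (16 of 21 tested) had 1 higher and 4 lower, and 2 higher and 5 lower. The list for necroptosis and pyroptosis had 4 of 23 genes tested, with 1 higher and 2 lower in each comparison. Its other 19 genes, which include the inflammasome sensors and interleukin 1, stayed under the minimum, and Gsdmc was at 0. The death ligands Tnf, Tnfsf10 and Fasl were listed at 0 in every library, as were Bcl2a1a, Bcl2a1b, Bcl2a1d and Bcl2l10.

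Past a log2 difference of 1, Traf1 and Tnfaip3 rose under the siRNA label. Traf1, an adaptor that binds cIAP1, had 8.19, 9.71 and 7.92 FPKM in NC, 23.0, 14.3 and 17.6 FPKM with MK1775, and 24.0, 22.9 and 24.1 FPKM under the siRNA label. Its ranges did not overlap with NC, and the log2 differences were 0.99 (SE 0.15, limma adjusted p = 0.00129) and 1.36 (SE 0.15, limma adjusted p = 0.000247). Tnfaip3, which encodes the NF-kB inhibitor A20, had 4.36, 6.38 and 6.50 FPKM in NC, 6.02, 6.45 and 12.2 FPKM with MK1775, and 13.3, 13.6 and 14.1 FPKM under the siRNA label. Under the siRNA label Tnfaip3 rose by 1.14 (SE 0.24, limma adjusted p = 0.00582), and with MK1775 the difference was 0.41 (adjusted p = 0.215), with 1 high library. The direct difference between the treated groups, -0.73, did not pass for Tnfaip3 (adjusted p = 0.712).

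The mitochondrial channel Vdac1 was chosen for naming after its values were seen. Vdac1 fell from 155 ± 9.07 FPKM (SD, n = 3) in NC to 84.7 ± 3.16 with MK1775 and 78.6 ± 3.75 under the siRNA label (log2 -0.87 and -0.97, limma adjusted p = 1.78e-05 and 9.95e-06). Cycs (cytochrome c) and Birc5 (survivin) rose, Cycs by 0.19 and 0.21 (adjusted p = 0.00771 and 0.00395) and Birc5 by 0.48 and 0.44 (adjusted p = 0.000183 and 0.000277), both named after their values were seen. Trp53, which encodes p53, had 17.1 ± 1.33 FPKM in NC, 16.3 ± 0.401 with MK1775 and 17.1 ± 0.434 under the siRNA label, and its differences of -0.06 and 0.00 did not pass; it too is named outside the rule.

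**Figure D4:**
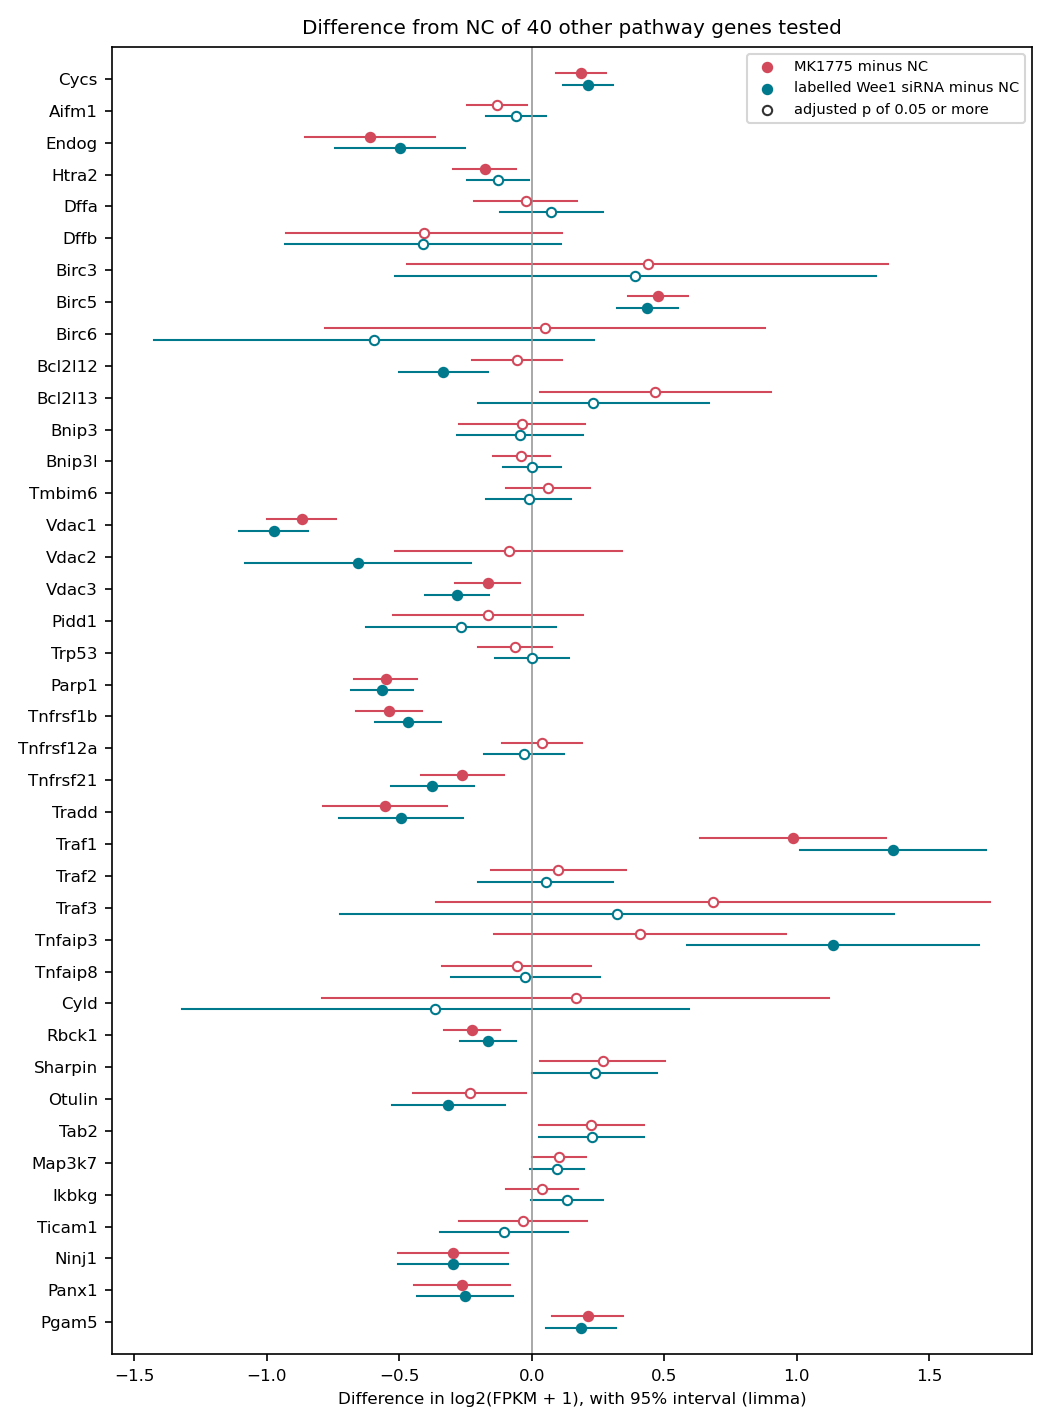
Difference from NC in log2(FPKM + 1), with its 95% interval from limma, for 40 of the tested genes of the 3 pathway lists; filled points have an adjusted p under 0.05, red is MK1775 and teal the siRNA label. Vdac1, Parp1, Endog and Tradd lie below 0 in both comparisons, and Traf1 and Birc5 above it.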

How the data were processed

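RNA of 9 libraries of 4T1 cells (3 per group) was measured by RNA-seq. The authors deposited FPKM per transcript for 158719 transcripts, 17991 of them assembled transcripts without a gene name, on GRCm39. Per the submitters' processing notes, the tools were HISAT2, StringTie, Trim Galore and FastQC (no versions given). No counts were used. Low FPKM values fell within 0.1 of a whole multiple of the best common step in 21.4% to 22.4% of cases (20% if evenly spread), so reads and depth could not be recovered.

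FPKM was summed per gene name (52306 genes, after leaving out 19 names found on more than 1 chromosome). The 10453 genes averaging 1 FPKM or more were tested on log2(FPKM + 1), a scale that understates the change of low genes. Fold values are ratios of mean FPKM, without the added 1. A single limma fit of the 9 libraries (lmFit, contrasts.fit, eBayes with trend) gave 3 two-sided contrasts, with Benjamini-Hochberg adjustment over all genes tested and a threshold of 0.05. An exact permutation test of 3 against 3 cannot go below 0.1. Software was R 4.3.3, limma 3.58.1, version 1.17.8 of data.table and matplotlib 3.10.9.

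Members and lists were chosen with earlier results of these data known. Per-library values are given for members called in a comparison with NC whose treated values lay outside the NC values, the other members by range, and list genes past a log2 difference of 1. Per-library values of Bmf, Fas and Mlkl are given outside this rule, after they were seen. Alternatives changed the pseudocount, minimum, scaling, fit, transcripts counted and libraries. Promoters are from RefSeq on GRCm38.p6, and the main transcripts' starts from GENCODE M21 on the same build. Some list genes and markers, although counted in their lists, are not reported here by name.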

Additional observations from a re-analysis of the deposited data

Results flagged for a closer look

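The transcripts of the Birc2 locus that carry no gene name, which are outside the main sums, were higher in the treated libraries than in the controls. They had 0.419, 0.331 and 0.762 FPKM in NC, 1.61, 2.02 and 1.82 FPKM with MK1775, and 1.27, 2.11 and 2.07 FPKM in the libraries labelled Wee1 siRNA. The lowest treated library, at 1.27 FPKM, was above the highest NC library, as it was for the named transcripts of Birc2. With both kinds summed, the Birc2 differences from NC were 1.41 and 1.55 on the log2 scale (limma adjusted p = 3.93e-05 and 2.15e-05).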

How the results depend on the processing

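Over 81 member results and 1758 alternative values, 1693 kept their side of the threshold, 51 lost a call and 14 gained one. The sign turned in 82 values of 26 results, 45 of them in the direct comparison, and 0 of these were called in either fit. The members that lost or gained a call are named with their values in the results, apart from calls gained under array weights (Bad, Bak1, Casp8, Casp9 and Gsdmd with MK1775, and Casp8 and Gsdmd under the siRNA label). Requiring a log2 difference of at least 1 left 4 of 27 members called with MK1775 (1 higher, 3 lower) instead of 12. This stands beside 4.17% of all genes (3.07% higher, 1.1% lower). Under the siRNA label it left 2 of 27 (1 higher, 1 lower) instead of 13, beside 4.69% (3.6% higher, 1.09% lower). That rule is stricter by construction. Array weights gave 13 members lower with MK1775 instead of 8 (over all genes 31% instead of 23.1%), and the most abundant transcript alone gave 3 higher under the siRNA label instead of 5 (14.6% instead of 19.6%); the cause was not tested. Leaving out 1 library at a time gave 9 to 13 members called with MK1775 (3 to 4 higher, 6 to 9 lower), beside 34.1% to 41.7% of all genes. Under the siRNA label it gave 10 to 12 (4 to 5 higher, 6 to 8 lower), beside 35.8% to 41.6%. In the direct comparison 0 members were called, beside 0% to 0.0287% of all genes.

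The replicate numbers did not pair the libraries: same-numbered libraries of 2 groups correlated at -0.12 to 0.04 in their deviations from the group means, and in 4 of 18 checks the best partner had the same number. With the replicate number as a block, 11 members were called with MK1775 (4 higher, 7 lower, beside 37.1% of all genes), 12 under the siRNA label (4 higher, 8 lower, beside 39%) and 0 in the direct comparison. Under the block Xiap with MK1775 (adjusted p = 0.0779), and Bcl2l11 (0.0811) and Casp9 (0.0626) under the siRNA label, were not called, and Bcl2l1 under the siRNA label was (0.0175). The unknown depth leaves the counting error of low genes such as Bmf and Fas without an estimate.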
